A study of Rattus norvegicus with 9 samples.

Results

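The genes described here handle iron and heme, set the sensitivity of cells to ferroptosis, and make or remove reactive oxygen species (ROS). They were taken as the rows of the deposited count table that carry any of 40 gene symbols, and where a symbol stood on several rows the row with the highest total was used. In all, 39 of the 40 symbols were found among 30507 rows, and Ncoa4, the receptor that delivers ferritin to the lysosome, was not analysed here. The RNA came from the T9-T11 spinal cord of female wild-type Sprague-Dawley rats, 8 weeks old when obtained and killed at 35 days post-injury (dpi), and each of the groups (Sham, SCI, and SCI + SCS) held 3 rats. Sham rats had a laminectomy only (their labels call them untreated). SCI rats had a T10 contusion and an electrode plug on the neck, without an electrode. SCI + SCS rats had the same contusion and an epidural electrode below it, through which high-frequency spinal cord stimulation was given at 10 kHz and 0.12 mA for 2 h per day from 1 dpi. Rats with an electrode and no current were not analysed here, so the electrode and the current cannot be told apart. The study asked which transcriptional changes persist at this chronic time point and which of them differ with stimulation.

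Iron enters cells through the transferrin receptor, is held in a shell of ferritin light and heavy chains, and leaves through ferroportin. Free ferrous iron turns hydrogen peroxide into hydroxyl radicals, and these oxidize the polyunsaturated lipids of membranes. Ferroptosis is the form of cell death that follows when such lipid peroxides outrun the glutathione-dependent peroxidase GPX4. In the injured spinal cord, hemorrhage and the loss of myelin deliver heme and iron to phagocytes, which are also a main source of superoxide.

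All 39 genes passed the filter on low counts in each comparison, and library totals lay between 62844376 and 88358570 counts. Levels are given as CPM (counts scaled to a common library total after TMM normalization), and levels of different genes are compared only in FPKM (fragments scaled by gene length and library total). In the Sham group, 36 of the 39 genes had a mean of at least 1 FPKM, 25 at least 10 FPKM and 7 at least 100 FPKM. Fth1 stood at 5677 ± 1429 FPKM and Tf at 1047 ± 226 FPKM (SD, n = 3), while Hp, Hpx and Alox15 were below 1 FPKM.

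Compared with the Sham group, 25 of the 39 genes changed in the SCI group, 15 upwards and 10 downwards, by edgeR's quasi-likelihood test at a Benjamini-Hochberg adjusted p under 0.05. Over all 17822 genes tested, 49.4% changed, 24.3% upwards and 25.0% downwards. The downward share of these genes (25.6%) lies near the background and the upward share (38.5%) lies above it. The genes were chosen with earlier results of these data known, so their upward share is a description and not a test. With |log2FC|>1 as well, 12 were higher and 2 lower, against 13.4% and 13.6% of all genes. The median log2FC of the 39 genes was 0.33, beside 0.02 for all genes. The called genes with a log2FC above 2 were, from the largest, Cyba, Ncf1, Ftl1, Cp, Slc11a1, Ncf4, Hmox1 and Hpx. The genes that fell most were Srxn1 and Tfrc. By the same test no gene of the 39 was called between the SCI + SCS and SCI groups, and 19 differed between the SCI + SCS and Sham groups.

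**Figure D1:**
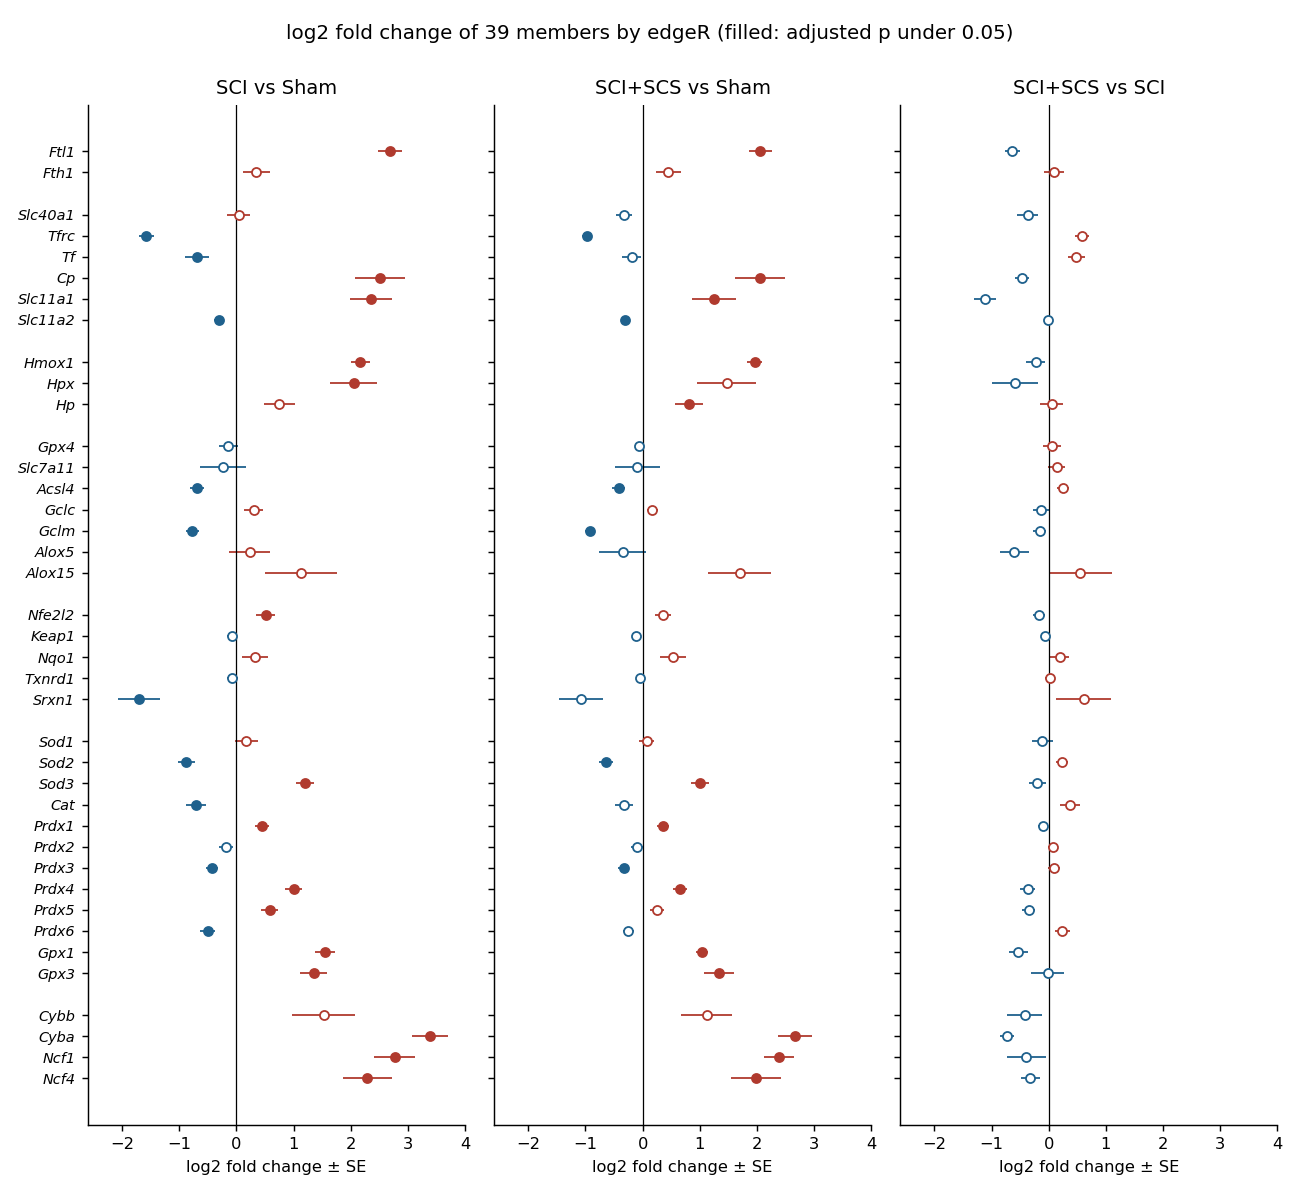
log2 fold change (x axis) of the 39 genes in each of the 3 comparisons, ordered by role from ferritin at the top to NADPH oxidase at the bottom. Bars are standard errors, red marks a higher and blue a lower value in the group named first, and filled points had an adjusted p under 0.05. Filled points number 25 for SCI against Sham, 19 for SCI + SCS against Sham and 0 for SCI + SCS against SCI.

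Ferritin stores iron in a shell of light chains (Ftl1), which favour mineral formation, and heavy chains (Fth1), which carry the ferroxidase activity. Ftl1 (chr1:95936387-95938807, minus strand, mRatBN7.2) measured 492, 717 and 779 CPM in the Sham rats, 4072, 4524 and 4344 CPM in the SCI rats, and 3126, 2638 and 2486 CPM in the SCI + SCS rats. The 3 groups did not overlap, with SCI highest and SCI + SCS between the other groups. The rise in SCI was 6.43-fold (log2FC 2.69 ± 0.21 SE, adjusted p = 0.00104). The heavy chain gene Fth1 (chr1:206627103-206629048, plus strand) measured 4687, 6411 and 7697 CPM in Sham, 9187, 7232 and 7772 CPM in SCI, and 8607, 9654 and 7350 CPM in SCI + SCS. These ranges overlapped, and the difference between SCI and Sham was 0.35 ± 0.24 on the log2 scale (adjusted p = 0.257).

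The ratio of Fth1 to Ftl1 counts within a library was followed after these levels were seen. It restates them, so neither the ratio nor the test on it below is separate support. It was 9.52, 8.94 and 9.89 in the Sham libraries, 2.26, 1.60 and 1.79 in the SCI libraries, and 2.75, 3.66 and 2.96 in the SCI + SCS libraries. The Sham libraries stood well above both injured groups, and each SCI + SCS library stood above each SCI library. The means were 9.45 ± 0.475, 1.88 ± 0.338 and 3.12 ± 0.475 (SD, n = 3), and a two-sided exact permutation test gave p = 0.1 for each pair of groups, the smallest p that 3 libraries against 3 allow. This ratio of counts compares the libraries and is not a ratio of chains, since the rows differ in length. The length by which the deposited FPKM of Ftl1 was scaled varied from 1940 to 3531 bases between libraries, so the FPKM ratio (23.8 ± 6.06, 3.50 ± 0.826 and 6.41 ± 1.25) is less certain. The same Ftl1 identifier and position stand on a second row holding 1.33% as many counts, which rose by 1.06 on the log2 scale (adjusted p = 0.00105). Summing the rows of the symbol gave a log2FC of 2.66. Ftl1-ps14, a pseudogene, rose by 3.31 on the log2 scale, and how reads that match several copies were shared among them is not given in the sources used here.

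Among iron transporters, 2 of 6 genes rose, 3 fell and 1 was not called in SCI against Sham, where 24.3% of all genes rose and 25.0% fell. Tfrc, the transferrin receptor (chr11:68163413-68185257, minus strand), measured 112, 113 and 110.1 CPM in Sham, 42.3, 39.3 and 32.0 CPM in SCI, and 56.7, 52.0 and 60.5 CPM in SCI + SCS. Sham was highest and SCI lowest, with no overlap between any groups. The level in SCI was 2.99-fold lower than in Sham (log2FC -1.58 ± 0.13, adjusted p = 0.00105). Transferrin itself, which oligodendrocytes make in the central nervous system, followed the same order of group means. Tf measured 2529, 2987 and 3772 CPM in Sham, 2098, 2165 and 1581 CPM in SCI, and 2461, 2784 and 2858 CPM in SCI + SCS. Its SCI libraries lay below all others, with a log2FC of -0.69 ± 0.21 against Sham (adjusted p = 0.0343). That call was lost without any 1 of Sham 2, Sham 3, SCI 1, SCI 2 or SCI 3, with adjusted p up to 0.0965.

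Ceruloplasmin (Cp, chr2:102439624-102498075, plus strand) is the ferroxidase that loads exported iron onto transferrin. It measured 30.2, 73.2 and 112 CPM in Sham, 418, 431 and 394 CPM in SCI, and 299, 336 and 257 CPM in SCI + SCS. Both injured groups stood above Sham, and the SCI libraries above the SCI + SCS libraries. The rise in SCI was 5.70-fold (log2FC 2.51 ± 0.44, adjusted p = 0.00497). Slc11a1, the divalent metal transporter of phagosomes, measured 2.75, 5.0 and 7.83 CPM in Sham, 22.3, 29.8 and 29.0 CPM in SCI, and 15.4, 10.3 and 11.4 CPM in SCI + SCS. Again the groups did not overlap, and SCI was 5.14-fold above Sham (log2FC 2.36 ± 0.37, adjusted p = 0.00349).

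Slc11a2, the transporter that takes iron from endosomes into the cytosol, fell by 0.31 on the log2 scale (adjusted p = 0.0244), with 42.7 to 45.3 CPM in Sham and 33.7 to 36.7 CPM in SCI. Its call was lost in 5 of 6 fits that left out 1 library, and it held only without Sham 1. Slc40a1, which encodes ferroportin, the known cellular exporter of iron, ranged from 10.9 to 13.8 CPM in Sham and from 9.77 to 15.3 CPM in SCI, with a log2FC of 0.04 ± 0.20 (adjusted p = 0.869). The sign of that small difference was not stable. Counts without SCI 2 gave -0.13, and FPKM gave -0.15, scaled by a length that varied from 5067 to 8470 bases between libraries.

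**Figure D2:**
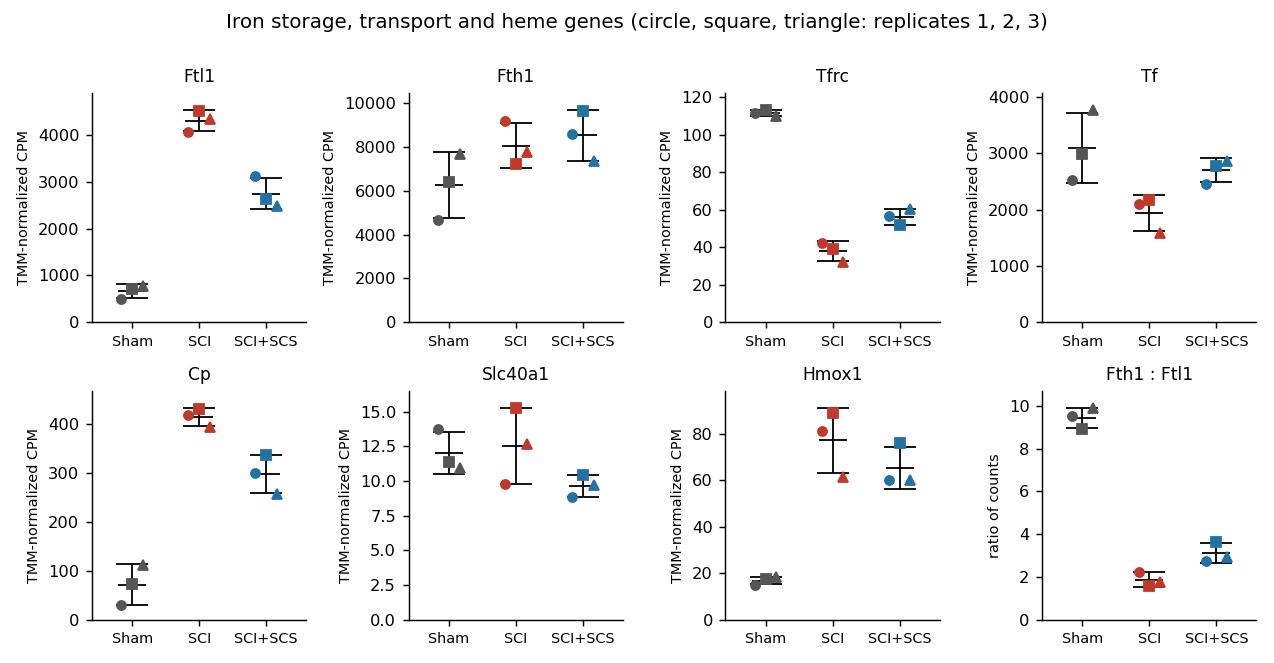
Level of 7 iron and heme genes in each library (y axis, TMM-normalized CPM from 0) and the ratio of Fth1 to Ftl1 counts (last panel), by group. Symbols are single rats, and bars give the mean ± SD (n = 3). Ftl1, Cp and Hmox1 stand higher and Tfrc lower in both injured groups than in Sham, and the ratio falls from 9.45 in Sham to 1.88 in SCI.

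Heme oxygenase 1 (Hmox1, chr19:13467244-13474079, plus strand) opens the heme ring and frees its iron. It measured 15.1, 17.4 and 18.2 CPM in Sham, 81.3, 88.8 and 61.5 CPM in SCI, and 60.3, 76.0 and 60.2 CPM in SCI + SCS. The injured groups overlapped each other and both stood above Sham. Hmox1 rose 4.51-fold in SCI (log2FC 2.17 ± 0.17, adjusted p = 0.00104). Hpx, which encodes the heme scavenger hemopexin, was low, at 0.204, 0.443 and 0.538 CPM in Sham and 1.70, 1.41 and 1.92 CPM in SCI, a rise of 2.05 ± 0.41 on the log2 scale (adjusted p = 0.00750). Hp, which encodes the hemoglobin scavenger haptoglobin, measured 2.14, 1.41 and 1.38 CPM in Sham and 2.98, 3.09 and 2.33 CPM in SCI, without overlap, but its log2FC of 0.75 ± 0.27 missed the threshold by edgeR (adjusted p = 0.0581) and passed it by DESeq2 (adjusted p = 0.0252). Hpx and Hp are known as secreted liver genes, and 5 hepatocyte markers found made up at most 0.000520% of the counts in any library. The study's methods describe saline perfusion before RNA was taken. The 4 erythroid markers found made up 0.00112% to 0.00616% of counts in Sham, 0.00392% to 0.0135% in SCI and 0.00449% to 0.0106% in SCI + SCS, and their part in the Hmox1 result was not tested.

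Of 7 genes of the glutathione and ferroptosis group, 0 rose and 2 fell in SCI against Sham by edgeR, a share of 28.6% lower against 25.0% of all genes. At an unadjusted p under 0.05 and by DESeq2 the number that rose was also 0, where 28.7% and 25.2% of all genes were higher. Gpx4, which reduces lipid peroxides in membranes, measured 433, 396 and 404 CPM in Sham, 428, 286 and 419.6 CPM in SCI, and 396, 393 and 387 CPM in SCI + SCS. SCI 2 was the low library, and the difference of -0.14 ± 0.17 on the log2 scale was smaller than its standard error (adjusted p = 0.520). Without SCI 2 it was 0.02. Slc7a11, the cystine importer of system xc-, ranged from 2.89 to 9.31 CPM in Sham and from 4.96 to 5.81 CPM in SCI (log2FC -0.24 ± 0.40, adjusted p = 0.635).

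Acsl4, the acyl-CoA synthetase that channels arachidonic acid into phospholipids and thereby makes membranes oxidizable, fell. It measured 44.3, 39.6 and 35.4 CPM in Sham, 24.5, 27.7 and 22.7 CPM in SCI, and 27.9, 29.2 and 31.7 CPM in SCI + SCS, and Sham stood above both injured groups. The fall in SCI was 1.61-fold (log2FC -0.69 ± 0.13, adjusted p = 0.00620). The enzyme that makes the glutathione precursor γ-glutamylcysteine has a catalytic subunit, Gclc, and a modifier subunit, Gclm, and their genes differed. Gclm measured 23.1, 26.5 and 24.6 CPM in Sham, 12.8, 15.2 and 16 CPM in SCI, and 13.0, 13.5 and 12.7 CPM in SCI + SCS, with Sham above all injured libraries (log2FC -0.77 ± 0.12, adjusted p = 0.00355). Gclc ranged from 40.5 to 51.0 CPM in Sham and from 45.4 to 64.1 CPM in SCI (log2FC 0.30 ± 0.16, adjusted p = 0.158). The lipoxygenase genes Alox5 and Alox15 were both low. Alox5 stayed between 1.73 and 4.62 CPM in the 9 libraries, and Alox15 between 0.0909 and 0.823 CPM, where 3 counts correspond to 0.0341 to 0.0472 CPM. By edgeR neither was called in any comparison, and by DESeq2 Alox15 was higher in SCI + SCS than in Sham (log2FC 1.69, adjusted p = 0.027).

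NRF2, encoded by Nfe2l2, is the transcription factor that induces antioxidant genes when its inhibitor KEAP1 is oxidized. Nfe2l2 measured 49.4, 62.3 and 73.4 CPM in Sham, 78.2, 94.8 and 94.7 CPM in SCI, and 78.5, 81.4 and 77.1 CPM in SCI + SCS, so that each injured library exceeded each Sham library. The rise in SCI was 1.43-fold (log2FC 0.51 ± 0.16, adjusted p = 0.0381), and the call was lost without any 1 of Sham 1, Sham 2, SCI 2 or SCI 3 (adjusted p up to 0.113). Keap1 ranged only from 56.3 to 65.4 CPM over the 9 libraries. Known NRF2 targets among the 39 genes moved in different directions in SCI. Hmox1, Prdx1 and Ftl1 rose, Gclm and Srxn1 fell, and Nqo1, Txnrd1, Gclc, Slc7a11 and Fth1 were not called. Of all genes tested 24.3% rose and 25.0% fell, so this split describes these genes and is not a result about NRF2 targets. Nqo1, a quinone reductase, had a log2FC of 0.33 ± 0.23 (adjusted p = 0.270) and Txnrd1, the cytosolic thioredoxin reductase, of -0.07 ± 0.09 (adjusted p = 0.562). Srxn1, which restores overoxidized peroxiredoxins, measured 1.62, 1.79 and 1.46 CPM in Sham, 0.520, 0.298 and 0.694 CPM in SCI, and 0.435, 1.15 and 0.721 CPM in SCI + SCS. It was low in every library and fell 3.27-fold in SCI (log2FC -1.71 ± 0.37, adjusted p = 0.0100), the largest fall among the 39 genes.

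NRF2 binds the antioxidant response element, whose core reads TGACNNNGC. The core was searched on both strands in windows from 250 bases before to 50 bases after the start of each gene (RefSeq, GRCr8), which were at hand for 30 of the 39 genes. Ftl1, Fth1, Slc11a1, Hmox1, Hp, Alox15, Sod3, Prdx6 and Ncf4 had no window and were not searched. The core was found in 9 of the 30 windows (30.0%) and in 12.1% of all 33469 windows. In 6 genes the match lies wholly before the start, and there it is read on the strand opposite to the gene, as GCNNNGTCA. These 6 are printed 5′ to 3′ along the gene with the core in capitals, because they include genes that rose, fell and were not called.
Gclm: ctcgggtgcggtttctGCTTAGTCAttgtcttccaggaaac
Hpx: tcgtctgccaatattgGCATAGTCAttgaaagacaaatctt
Ncf1: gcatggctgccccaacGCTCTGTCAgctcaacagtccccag
Prdx1: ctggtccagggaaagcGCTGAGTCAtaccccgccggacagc
Sod2: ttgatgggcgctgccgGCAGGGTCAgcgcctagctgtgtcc
Txnrd1: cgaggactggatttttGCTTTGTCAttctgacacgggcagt
They lie at chr2:213031947-213031987 (plus strand), chr1:169352230-169352270 (minus), chr12:28121710-28121750 (plus), chr5:135383755-135383795 (plus), chr1:50050179-50050219 (minus) and chr7:22755958-22755998 (minus) of GRCr8, in the order printed. The match in Prdx1 also overlaps the AP-1 motif TGANTCA. The other matches, in Nfe2l2, Prdx4 and Prdx5, reach into or lie after the start. Of the 9 genes with a match, 6 rose in SCI (Hpx, Ncf1, Nfe2l2, Prdx1, Prdx4 and Prdx5), 2 fell (Gclm and Sod2) and Txnrd1 was not called. Of all 39 genes 38.5% rose and 25.6% fell, and of all genes tested 24.3% and 25.0%. The 39 genes include those without a window, so their shares are not those of the genes searched. Whether a match goes with a rise was not tested. A match is a description of the letters in these windows and not of binding.

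The 12 enzymes that remove superoxide and peroxide divided, with 6 higher, 4 lower and 2 not called in SCI against Sham (50% and 33.3%, against 24.3% and 25.0% of all genes). The genes of the 3 superoxide dismutases, which turn superoxide into hydrogen peroxide, went different ways. Sod1, the cytosolic enzyme, ranged from 163 to 219 CPM in Sham and from 169 to 272 CPM in SCI (log2FC 0.17 ± 0.20, adjusted p = 0.510). Sod2, the mitochondrial enzyme, measured 278, 225 and 210 CPM in Sham, 148, 129 and 115 CPM in SCI, and 148, 147 and 163 CPM in SCI + SCS. It was lower in every injured library than in any Sham library and fell 1.84-fold in SCI (log2FC -0.88 ± 0.15, adjusted p = 0.00479). Sod3, the extracellular enzyme, measured 45.4, 56.0 and 63.6 CPM in Sham, 113, 148 and 123 CPM in SCI, and 130.5, 99.8 and 102 CPM in SCI + SCS. It was higher in every injured library and rose 2.3-fold in SCI (log2FC 1.20 ± 0.16, adjusted p = 0.00242). Catalase, the peroxisomal enzyme that breaks down hydrogen peroxide, fell 1.63-fold. Cat measured 116, 125 and 151 CPM in Sham and 90.8, 88.4 and 63.9 CPM in SCI (log2FC -0.71 ± 0.17, adjusted p = 0.0155), with SCI + SCS at 98.4, 126 and 88.7 CPM across both ranges.

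Peroxiredoxins reduce peroxides with thiols. Prdx4, the enzyme of the endoplasmic reticulum, rose most in SCI, from 21.5, 26.4 and 27.8 CPM in Sham to 47.1, 45.8 and 60.7 CPM (log2FC 1.0 ± 0.15, adjusted p = 0.00318). The cytosolic Prdx1 rose 1.36-fold (adjusted p = 0.0214), and Prdx5, found in mitochondria and peroxisomes, 1.5-fold (adjusted p = 0.0188). The mitochondrial Prdx3 fell 1.35-fold (adjusted p = 0.0202) and Prdx6, which also reduces phospholipid peroxides, 1.42-fold (adjusted p = 0.0199). Prdx2, another cytosolic member, ranged from 279 to 344 CPM in Sham and from 255 to 295 CPM in SCI (adjusted p = 0.261). The calls of Prdx1, Prdx3, Prdx5 and Prdx6 depended on the libraries used. Leaving out Sham 1, Sham 2, SCI 1 or SCI 3 ended the Prdx1 call, Sham 1, Sham 2, SCI 1 or SCI 2 the Prdx3 call, Sham 2, Sham 3 or SCI 1 the Prdx5 call, and Sham 1, Sham 2, SCI 2 or SCI 3 the Prdx6 call, with adjusted p up to 0.0941. The Prdx5 symbol stands on a second row with 2.19% as many counts, which fell by 1.36 on the log2 scale. Prdx1l1, a Prdx1-like gene with 13.0% as many counts as Prdx1, was not called (log2FC 0.14, adjusted p = 0.326).

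Of the glutathione peroxidase genes, Gpx1 and Gpx3 rose, and Gpx4, described above, was not called. Gpx1, the cytosolic enzyme (chr8:109026905-109028024, plus strand), measured 83.9, 94.4 and 103 CPM in Sham, 239, 252 and 346 CPM in SCI, and 206, 199 and 174 CPM in SCI + SCS. The 3 groups did not overlap, and SCI stood 2.93-fold above Sham (log2FC 1.55 ± 0.17, adjusted p = 0.00156). Gpx3, the secreted enzyme, measured 39.1, 36.3 and 48.8 CPM in Sham, 108, 137 and 76.1 CPM in SCI, and 77.3, 88.9 and 148 CPM in SCI + SCS. The injured groups overlapped each other above Sham (log2FC 1.35 ± 0.23 for SCI, adjusted p = 0.00471). The count table lists Gpx3 as a long non-coding RNA. Gpx3, Tf and Cp each overlap a gene on the opposite strand, and since the strand setting of the counting is not given in the sources used here, reads of both partners may be mixed.

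**Figure D3:**
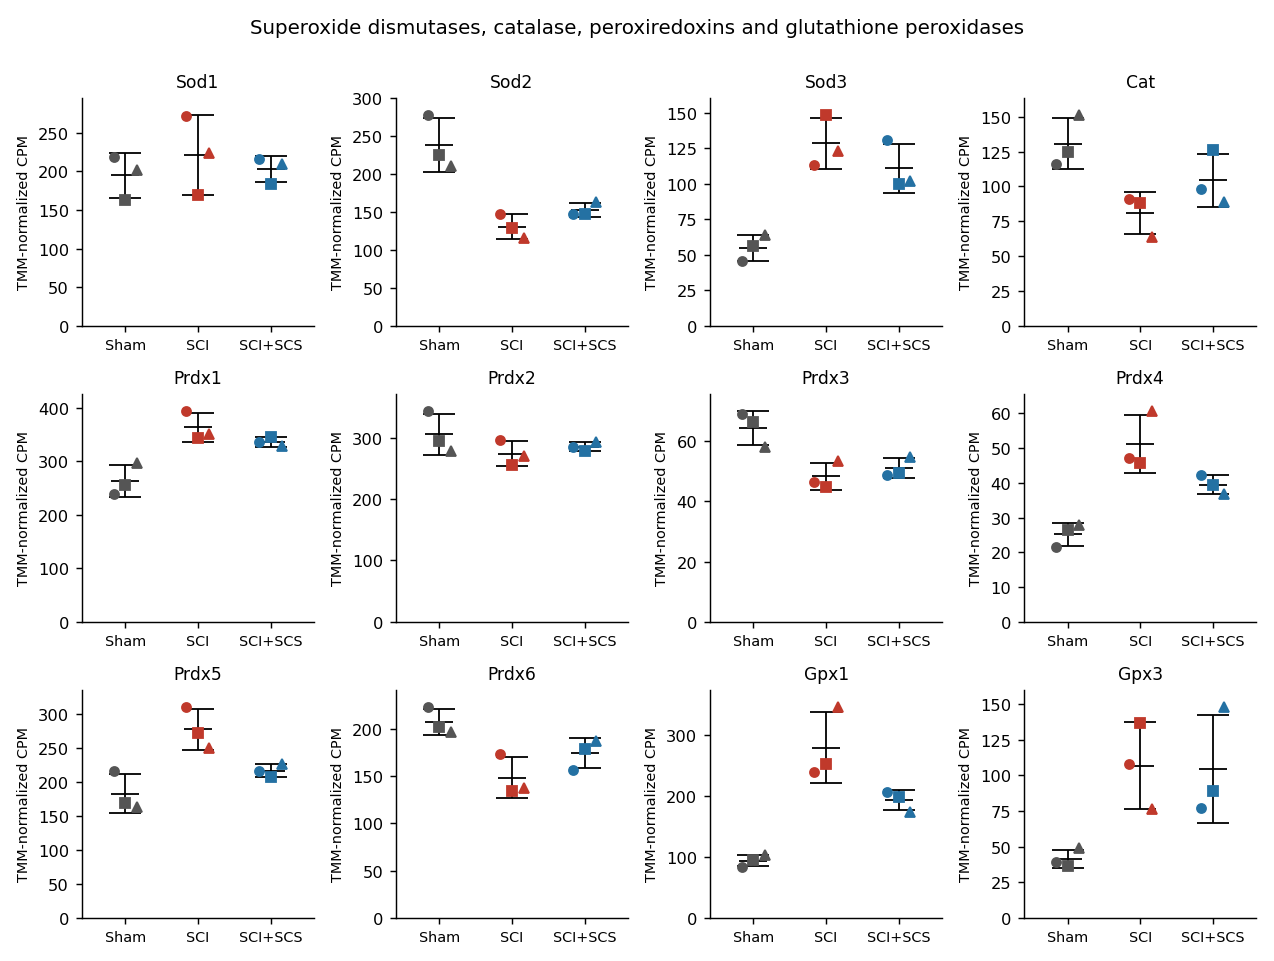
Level of the superoxide dismutase, catalase, peroxiredoxin and glutathione peroxidase genes in each library (y axis, TMM-normalized CPM from 0) by group. Circles, squares and triangles are replicates 1, 2 and 3, and bars give the mean ± SD (n = 3). Sod3, Prdx4, Gpx1 and Gpx3 stand higher and Sod2 lower in both injured groups than in Sham, while Sod1 overlaps.

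The phagocyte NADPH oxidase makes superoxide from a membrane pair (Cybb, the catalytic subunit, and Cyba, its partner) and cytosolic subunits (here Ncf1, the organizer, and Ncf4). Of these 4 genes, 3 rose in SCI, where 24.3% of all genes rose. Cyba (chr19:50487597-50495721, minus strand) measured 12.4, 18.2 and 28.2 CPM in Sham, 195, 192 and 238 CPM in SCI, and 143, 118 and 114 CPM in SCI + SCS. The groups did not overlap, and the 10.5-fold rise in SCI was the largest among the 39 genes (log2FC 3.39 ± 0.31, adjusted p = 0.00123). Ncf1 measured 11.8, 15.2 and 18.8 CPM in Sham, 112, 145 and 59.3 CPM in SCI, and 77.4, 103 and 58.8 CPM in SCI + SCS. SCI 3 and SCI + SCS 3 were the low libraries of their groups, and both stood above Sham (log2FC 2.77 ± 0.36 for SCI, adjusted p = 0.00217). Ncf4 rose by 2.29 ± 0.43 on the log2 scale (adjusted p = 0.00633). Cybb measured 1.89, 3.65 and 7.36 CPM in Sham, 6.93, 17.5 and 13.3 CPM in SCI, and 9.92, 8.97 and 9.2 CPM in SCI + SCS. SCI 1 fell within the Sham range, and the difference of 1.53 ± 0.55 was not called by edgeR (adjusted p = 0.0551), whereas DESeq2 gave an adjusted p of 0.00757.

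Macrophage and pan-myeloid markers made up a larger share of counts after injury. The 11 macrophage and pan-myeloid markers found of 12 made up 0.0830% to 0.0894% of counts in Sham, 0.352% to 0.538% in SCI and 0.291% to 0.333% in SCI + SCS. In SCI against Sham, 9 of the 11 rose with none falling, where 24.3% of all genes rose and 25.0% fell. Of 7 microglial markers (Siglech among them at 0 in at least 1 library), 6 could be tested and 1 rose, with 0.0264% to 0.0349% of counts in Sham and 0.0347% to 0.0476% in SCI. In bulk tissue, fewer cells of a type and less RNA per cell cannot be told apart. The part of these cells in the rise of the oxidase genes, Slc11a1, Ftl1 and Gpx1 was not tested.

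**Figure D4:**
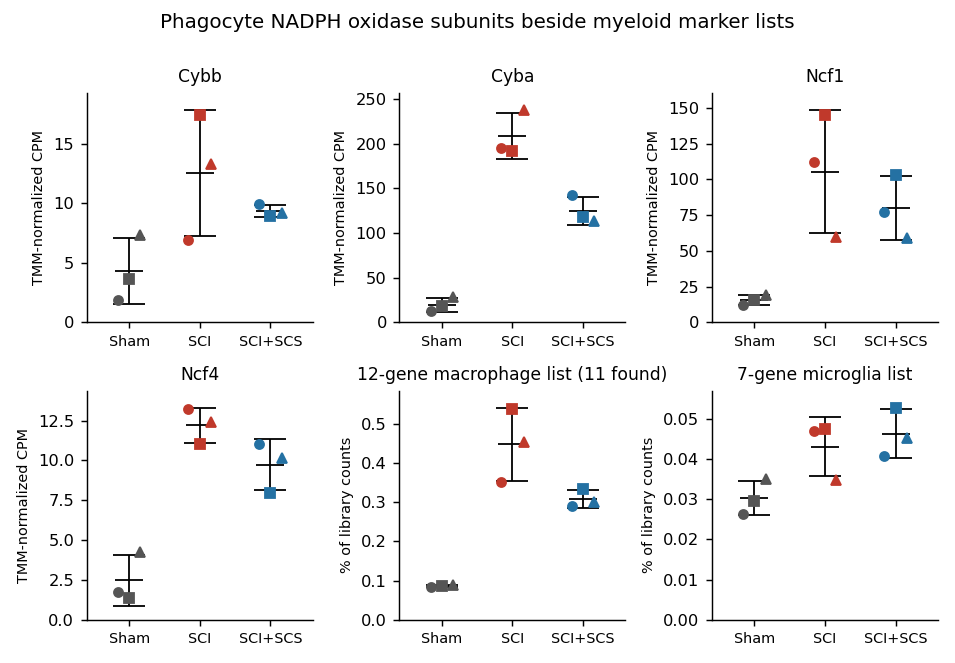
Level of 4 NADPH oxidase subunit genes (y axis, TMM-normalized CPM from 0) and the summed share of macrophage and microglial marker genes (y axis, percent of library counts) in each library, by group. Circles, squares and triangles are replicates 1, 2 and 3, and bars give the mean ± SD (n = 3). Cyba, Ncf1 and Ncf4 and the macrophage share stand above Sham in every injured library.

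Markers of other cell types were called as well, where 24.3% of all genes rose and 25.0% fell in SCI against Sham. The 10 oligodendrocyte markers made up 5.80% to 8.32% of counts in Sham, 1.88% to 3.11% in SCI and 3.18% to 3.75% in SCI + SCS, and 9 of them fell in SCI. All 10 neuronal markers fell, from 0.492% to 1.07% of counts in Sham to 0.0793% to 0.238% in SCI, with 0.236% to 0.396% in SCI + SCS. These values stand beside the lower levels of Tf, Tfrc, Sod2, Prdx3, Cat and Acsl4, and their part in them was not tested. Of 8 fibroblast and meningeal markers, 7 rose, from 0.0404% to 0.197% of counts in Sham to 0.323% to 0.559% in SCI. Sham 1 had the lowest fibroblast and the highest neuronal share of the Sham libraries and the lowest level of Ftl1, Fth1, Cp, Slc7a11, Cyba and Nqo1 among the 9 libraries. Skeletal muscle markers made up 0.337% of counts in SCI 1 and 0.102% in SCI 3, and at most 0.0133% elsewhere. Without both Sham 1 and SCI 1, 22 of the 39 genes were called between SCI and Sham, and the share of all genes in that fit was not counted. The other marker lists also covered astrocytes, Schwann cells, endothelial and mural cells, neutrophils, lymphocytes and adipocytes. In SCI against Sham, 0 of 8, 3 of 5, 3 of 7, 4 of 5, 6 of 9 and 3 of 5 tested markers of these rose, and 3 astrocyte and 2 endothelial and mural markers fell.

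Between the SCI + SCS and SCI groups, edgeR called 0 of the 39 genes at an adjusted p under 0.05, and 0.00566% of all 17663 genes (1 gene). At an unadjusted p under 0.05 there were 10 genes, 3 higher and 7 lower in SCI + SCS (25.6%, against 24.2% of all genes, 13.3% higher and 10.9% lower). DESeq2 called 8, of which Tfrc and Tf were higher and Ftl1, Cp, Slc11a1, Prdx5, Gpx1 and Cyba lower in SCI + SCS, against 15.7% of all 16503 genes for which it gave an adjusted p (8.83% higher and 6.9% lower). In all 8 the libraries of the 2 groups did not overlap. The calls came from these same libraries, so this is no separate support. Over the 39 genes there were 11 without overlap, 3 higher and 8 lower, against 15.7% and 13.9% of all genes. The median log2FC of the 39 genes was -0.10, and that of all genes -0.01.

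Slc11a1 was 2.17-fold lower in SCI + SCS than in SCI (log2FC -1.12 ± 0.19, edgeR adjusted p = 0.0719, DESeq2 adjusted p = 6.17e-06), the largest difference among the 39 genes, and edgeR called it only without SCI + SCS 1 (log2FC -1.31, adjusted p = 0.0499). Cyba was 1.66-fold lower (log2FC -0.73 ± 0.13, edgeR adjusted p = 0.0719, DESeq2 adjusted p = 3.33e-05) and Ftl1 1.56-fold lower (log2FC -0.64 ± 0.13, edgeR adjusted p = 0.0826, DESeq2 adjusted p = 1.1e-05). Tfrc was 1.5-fold higher (log2FC 0.58 ± 0.12, edgeR adjusted p = 0.0826, DESeq2 adjusted p = 0.00212). Cp had a log2FC of -0.47 ± 0.12 (DESeq2 adjusted p = 0.00416), Gpx1 of -0.53 ± 0.16 (0.0193), Tf of 0.48 ± 0.15 (0.0214) and Prdx5 of -0.35 ± 0.11 (0.0248). For Hmox1 the difference was -0.23 ± 0.16, for Gpx4 0.06 ± 0.16 and for Gpx3 -0.02 ± 0.29. All 4 oxidase genes had lower means in SCI + SCS, but the libraries of Cybb, Ncf1 and Ncf4 overlapped (edgeR adjusted p = 0.449, 0.514 and 0.266). The macrophage share was lower as well, without overlap, though edgeR called 0 of its 11 markers. Microglial markers made up 0.0408% to 0.0528% of counts in SCI + SCS and 0.0347% to 0.0476% in SCI.

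Compared with Sham, 19 of the 39 genes differed in the SCI + SCS group, 13 higher and 6 lower, against 32.4% of all 17640 genes (16.2% in each direction). With |log2FC|>1 as well, 10 were higher and 0 lower, against 6.28% and 5.44% of all genes. Of the 39 genes, 18 were called in both injured groups against Sham, 12 higher and 6 lower, and both comparisons share the Sham libraries. The shares of all genes called in both comparisons or in a single comparison were not counted, so these numbers describe the 39 genes only. The genes higher in both were Ftl1, Cp, Slc11a1, Hmox1, Sod3, Prdx1, Prdx4, Gpx1, Gpx3, Cyba, Ncf1 and Ncf4, and those lower in both were Tfrc, Slc11a2, Acsl4, Gclm, Sod2 and Prdx3. By edgeR a further 7 were called in SCI and not in SCI + SCS (Tf, Hpx, Nfe2l2, Srxn1, Cat, Prdx5 and Prdx6), and Hp in SCI + SCS and not in SCI, without a called difference between the injured groups for any of them. DESeq2 also called Hpx (adjusted p = 0.0349) and Srxn1 (adjusted p = 0.029) in SCI + SCS against Sham, and Hp in SCI against Sham.

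Against Sham, Cyba stood 6.37-fold higher in SCI + SCS (log2FC 2.67 ± 0.30, adjusted p = 0.00400), Ftl1 4.16-fold (log2FC 2.06 ± 0.20, adjusted p = 0.00336) and Hmox1 3.88-fold (log2FC 1.96 ± 0.13, adjusted p = 0.00278). Tfrc was 1.98-fold lower (log2FC -0.98 ± 0.08, adjusted p = 0.00315) and Gclm 1.89-fold lower (log2FC -0.92 ± 0.09, adjusted p = 0.00336). Hp had a log2FC of 0.81 ± 0.24 (adjusted p = 0.0441). In fits that left out 1 library, the number of genes called ranged from 9 to 20, with 9 without SCI + SCS 1, 10 without Sham 2, and 12 without SCI + SCS 2 or SCI + SCS 3. The share of all genes called in these fits was not counted. Ftl1, Tfrc, Hmox1, Gclm, Sod3, Gpx1, Cyba and Ncf1 were called in all 6 of these fits.

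The rest of these pathways was read from 4 lists of 124 other genes, of which 122 were found. These lists too were chosen with earlier results of these data known. In SCI against Sham, 41 of 117 genes tested rose and 22 fell (35.0% and 18.8%, against 24.3% and 25.0% of all genes), and the median log2FC was 0.23, beside 0.02 for all genes. Among iron and heme genes, 11 of 33 rose and 7 fell (33.3% and 21.2%, against the same shares of all genes). Lcn2, which encodes the siderophore-binding lipocalin 2, rose by 2.56 ± 0.27 on the log2 scale (adjusted p = 0.00143) and Steap1, of a family of metalloreductases, by 2.77 ± 0.55 (adjusted p = 0.00734). Slc48a1, a heme transporter, fell by 1.14 ± 0.14 (adjusted p = 0.00199), and Abcg2 and Steap2 by 0.77 and 0.75. Hjv, a hemojuvelin gene that skeletal muscle expresses, had a log2FC of 6.55 ± 1.82 (adjusted p = 0.0241), but it measured 19.3 and 7.37 CPM in SCI 1 and SCI 3, the libraries with muscle markers, and 0.0994 CPM in SCI 2.

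Among 25 other ferroptosis genes, 7 rose and 7 fell (28.0% each, near the 24.3% and 25.0% of all genes). Scd, the stearoyl-CoA desaturase that makes monounsaturated fatty acids, fell by 3.72 ± 0.28 on the log2 scale (adjusted p = 0.00103), from 116, 207 and 233 CPM in Sham to 14.9, 13.1 and 14.8 CPM in SCI, with 23.2, 25.0 and 28.3 CPM in SCI + SCS. Chac1, which degrades glutathione, fell by 1.70 ± 0.34 (adjusted p = 0.00728), and Aloxe3 by 1.40. Alox12 rose by 1.93 ± 0.20 (adjusted p = 0.00143), Sat1, of polyamine breakdown, by 1.58 ± 0.11 (adjusted p = 0.000976) and Mboat1 by 1.1.

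Among 43 other NRF2 target and redox genes, 18 rose and 6 fell (41.9% and 14.0%, against 24.3% and 25.0% of all genes). The metallothionein genes Mt2A and Mt1, which bind zinc and copper, rose by 3.58 ± 0.39 and 3.42 ± 0.47 (adjusted p = 0.00156 and 0.00246). Mt2A measured 38.4, 60.3 and 75.4 CPM in Sham, 1042, 477 and 582 CPM in SCI, and 608, 664 and 646 CPM in SCI + SCS. Mgst2 rose by 2.78, while Abcc1, Me1 and Mgst3 fell by 1.33, 0.90 and 0.71. Among 16 other oxidant-producing genes, 5 rose and 2 fell (31.2% and 12.5%, against the same shares of all genes). The GTPase gene Rac2 rose by 2.21 ± 0.33 (adjusted p = 0.00309) and the proton channel gene Hvcn1 by 2.17, and Rac1 and Maoa fell by 0.94 and 0.85.

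In SCI + SCS against Sham, 35 of 114 tested genes of the 4 lists were higher and 19 lower (30.7% and 16.7%, against 16.2% of all genes in each direction). Mt2A and Mt1 both stood 3.46 higher on the log2 scale, Lcn2 2.13 higher and Steap1 1.94 higher, while Scd was lower (log2FC -2.86 ± 0.27, adjusted p = 0.00336). Between SCI + SCS and SCI, edgeR called 0 of 116 tested genes, 30 had an unadjusted p under 0.05 (25.9%, near the 24.2% of all genes), and DESeq2, which called 15.7% of all genes, called 17, 4 higher and 13 lower in SCI + SCS, of which 1, Hjv, was not among the 116 genes that edgeR tested.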

How the data were processed

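The authors deposited raw counts per gene and library, and FPKM, in which counts are scaled by gene length and library total. Per the labels, reads were trimmed with fastp 0.23.2, and HISAT2 2.2.1 and mRatBN7.2 are named. The counting program, and whether it used strand, are not given in the sources used here. The deposited FPKM imply lengths that vary between libraries by over 1.1 times for 8 genes.

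Each comparison was fitted to its own 6 libraries by the quasi-likelihood test of edgeR 4.0.16 under R 4.3.3, after TMM scaling and filterByExpr at its default settings. Adjustment was by Benjamini-Hochberg over all genes tested, and the standard error is the log2FC divided by the square root of F. DESeq2 1.42.0, and limma 3.58.1 on log2(FPKM + 1) and log2(FPKM + 0.1) with a mean FPKM of at least 0.1, were alternatives, as were other filters (at least 10 counts in every library, or none), DESeq2 size factors, a joint fit of all 9 libraries, replicate number as a block, muscle and adipocyte genes removed, and each library left out. Summing the rows of a symbol before the fit, leaving out Sham 1 and SCI 1 together, and refitting counts of the pathway lists were added after seeing the data. The fits were tested on simulated data.

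The genes and lists were chosen with earlier results of these data known. Any of the 40 could be named, and from each pathway list up to 3 higher and 3 lower called genes with the largest |log2FC|. One gene that this rule names is not reported here. Replicates are separate rats, and p-values measure the spread between them. Depth was 62844376 to 88358570 counts, where 3 counts are 0.0341 to 0.0472 CPM. The reads carry no molecular identifiers, so this floor covers counting error alone.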

Additional observations from a re-analysis of the deposited data

How the results depend on the processing

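With |log2FC|>1 also required, 14 of the 39 genes were called in SCI against Sham, 0 in SCI + SCS against SCI and 10 in SCI + SCS against Sham, and 29 and 17 genes of the 4 pathway lists in SCI against Sham and SCI + SCS against Sham. In SCI + SCS against SCI, DESeq2 called 8 of the 39 genes and 17 of the pathway genes where edgeR called 0, and an unadjusted p under 0.05 gave 10 and 30. The cause was not tested. Without 1 library, the number called was 18 to 23, 0 to 1 and 9 to 20 for the 39 genes in the order SCI against Sham, SCI + SCS against SCI and SCI + SCS against Sham, and 48 to 58, 0 to 2 and 26 to 54 for the pathway genes. With fewer samples, such fits have fewer degrees of freedom, and the share of all genes called in them was not counted.

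Same-numbered libraries came from different rats. Over 18077 genes their deviations from the group means correlated at 0.267, -0.0395 and 0.226 for the 3 pairings of SCI and Sham, -0.194, 0.00707 and -0.233 of SCI + SCS and SCI, and -0.362, 0.0337 and -0.343 of SCI + SCS and Sham. The sign was mixed within each comparison, and the main fits did not pair the samples. With 3 libraries per group, these values cannot exclude processing shared by replicate number. With the replicate block, 25 of the 39 genes were called in SCI against Sham, 0 in SCI + SCS against SCI and 9 in SCI + SCS against Sham, where 18 pathway genes were called. Without the block, 19 of the 39 genes and 54 pathway genes were called in SCI + SCS against Sham. The share of all genes called with the block was not counted, so a loss particular to these genes cannot be told from a general one.

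Small differences changed sign, none of them called. In SCI against Sham these were Slc40a1 (FPKM -0.15 and -0.22, without 1 library -0.13 to 0.20), Gpx4 (-0.24 to 0.02), Slc7a11 (-0.59 to 0.13), Sod1 (-0.01 to 0.32) and Alox5 (-0.09 to 0.49), and, without Sham 1 and SCI 1, Alox5 (-0.16) and Nqo1 (-0.02). In SCI + SCS against SCI they were Slc11a2 (FPKM 0.04, without 1 library -0.07 to 0.01), Hp (FPKM -0.04 and -0.08, -0.08 to 0.12), Sod1 (FPKM 0.05, -0.28 to 0.05), Fth1 (-0.01 to 0.18), Gpx4 (-0.11 to 0.15), Txnrd1 (-0.05 to 0.06) and Gpx3 (-0.36 to 0.19). In SCI + SCS against Sham they were Slc7a11 (block 0.06, FPKM 0.01 and 0.08, without 1 library -0.44 to 0.29) and Sod1 (-0.05 to 0.16). Depth limits Hpx, Alox15 and Srxn1 most.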
